A study of Mus musculus with 6 samples.

Results

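FOXO factors are transcription factors that hold cells in a resting, stress-resistant state. The 10 genes described here are 3 of these factors, Foxo1, Foxo3 and Foxo4, and 7 genes that restrain growth or take part in the same signalling, namely Ccng2, Btg1, Sesn1, Sesn3, Pik3ip1, Irs2 and Tsc22d3. They were found by their symbols in the count table, which held all 10 of them among 37043 gene symbols. RNA came from mouse bone marrow-derived basophils (BMBAs), which are basophils grown in culture from bone marrow cells. Both groups were made from wild-type C57BL/6J marrow kept for 7 days at 0.3 ng/mL of a cytokine that the study's methods name as IL-3, and were then enriched with beads against CD49b. In the IL-3 group 3 cultures were given 10 ng/mL IL-3 for 6 h, and in the PBS group 3 cultures were given PBS. All cells had thus grown in IL-3 before the comparison began, and the number of mice behind each culture is not stated.

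Growth factor and cytokine receptors signal through PI3K and the kinase AKT, which phosphorylates FOXO proteins and sends them out of the nucleus. When the signal fades, FOXO proteins return to the nucleus and switch on genes that slow the cell cycle, limit mTOR or prepare the cell for stress. IL-3 is a survival and growth factor of basophils and mast cells, and it activates both the STAT5 and the PI3K pathway. Since FOXO proteins are controlled mainly by where they sit in the cell, transcript levels of the factors do not show their activity.

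IL-3 lowered most of these genes. Of the 10, 7 were called lower and 1 higher in IL-3-stimulated BMBAs, and 2 were not called. A call means an adjusted p under 0.05 by the quasi-likelihood test of edgeR. Levels are in CPM, the counts scaled to the size of each library with TMM factors, and fold changes set IL-3 against PBS. Over the 16675 genes tested, 20.2% were called lower and 18% were called higher, that is 3372 and 3003 genes (5030 and 1698 when scaled by library totals). The falls were of unlike size. Pik3ip1 fell 4.60-fold and Tsc22d3 fell 3.56-fold, whereas the other 5 lower genes had log2 fold changes between -0.55 and -0.44. The median log2 fold change was -0.50 over the 10 genes and -0.0033 over all genes tested. In 6 genes all IL-3 libraries lay below all PBS libraries, which held for 24.4% of the genes tested, and in 1 gene they lay above, which held for 23.8%. Tested against a fold of 1.5 instead of no change, 2 of the 10 genes were lower and 1 was higher, beside 5.3% and 4.25% of all genes.

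**Figure D1:**
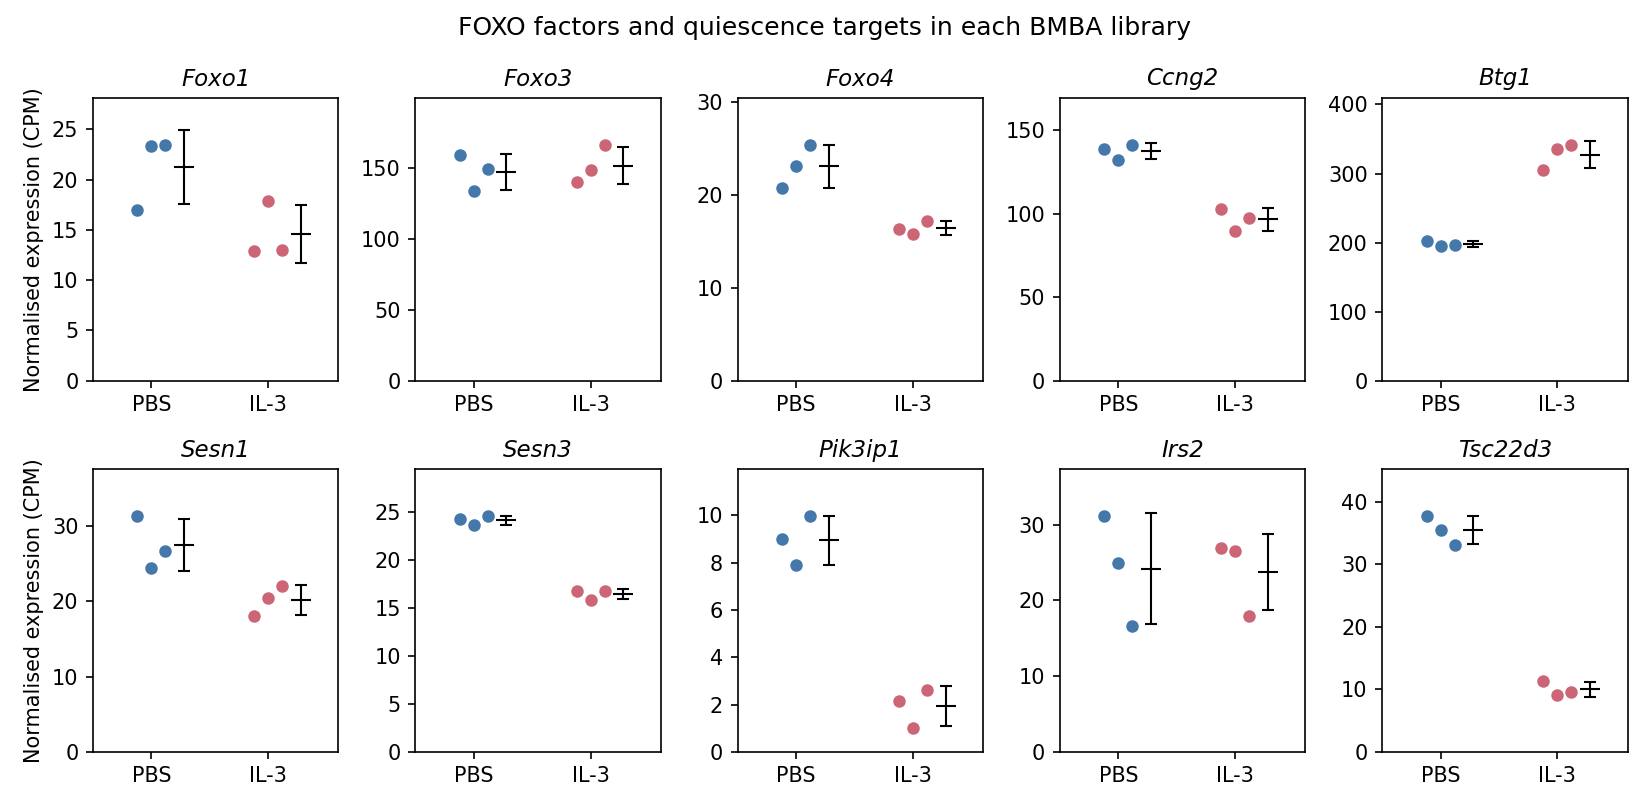
Normalised expression in CPM (linear axis from 0) of the 10 genes in each of the 3 PBS (blue) and 3 IL-3 (red) libraries, with mean ± SD in black. Pik3ip1 and Tsc22d3 sit far lower in IL-3, Btg1 sits higher, and the groups overlap for Foxo1, Foxo3 and Irs2.

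Promoter sequences of the RefSeq annotation (GRCm38.p6, 250 bases before to 50 after a start site) were matched for 9 of the 10 genes, all but Foxo4, with 12 windows in all, and are shown where they hold a known site. The FOXO site TGTTTAC was searched on both strands. It occurred in 3.65% of 32851 promoter windows and in 2 of the 12 windows here, those of Btg1 and Sesn1, which moved in opposite directions with IL-3. In Btg1 it lay 204 bases before the start (chr10:96616797-96616803), and in the upstream start of Sesn1 at position 23 after it (chr10:41810596-41810602). The STAT site TTCNNNGAA, a palindrome, occurred in 8.3% of all windows and here in 1 of 3 windows of Tsc22d3, 207 bases before that start (chrX:140548770-140548778). The glucocorticoid receptor site, AGAACA and TGTTCT with 3 bases between them and also a palindrome, was in 0.00913% of all windows and in none of these. Sequences run 5′ to 3′ on the strand of the gene, with the site in capitals. They cover chr10:96616767-96616833 (plus strand), chr10:41810586-41810612 (plus strand) and chrX:140548740-140548808 (minus strand).
Btg1: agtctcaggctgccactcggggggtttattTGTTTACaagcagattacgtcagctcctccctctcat
Sesn1: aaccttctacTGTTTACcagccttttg
Tsc22d3: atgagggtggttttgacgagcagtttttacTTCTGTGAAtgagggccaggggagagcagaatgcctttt

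Of the 12 windows 10 held more CpG, the dinucleotide that marks CpG islands, than the median of all windows. The windows of Irs2 and Foxo3 held 41 and 35 CpG, more than 96.5% and 93.0% of all windows. The window of Pik3ip1 held 7, which was also the median of all windows, and the STAT site of Tsc22d3 lay in a window with 3. Windows of the lower genes Foxo1 (31), Sesn1 (24 and 31), Sesn3 (22) and Ccng2 (21) were above that median too, and no relation to the response was tested. Among genes with 1 window, the whole windows of Pik3ip1 and Irs2 held the fewest and the most CpG. Shown are the 80 bases just before the start of Pik3ip1 (chr11:3330651-3330730, plus strand) and of Irs2 (chr8:11008930-11009009, minus strand), with CpG in capitals. These 80 bases held 1 and 10 CpG, and those of Ccng2 and Foxo1 held 11.
Pik3ip1: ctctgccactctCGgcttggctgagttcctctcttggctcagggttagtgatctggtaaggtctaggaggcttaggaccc
Irs2: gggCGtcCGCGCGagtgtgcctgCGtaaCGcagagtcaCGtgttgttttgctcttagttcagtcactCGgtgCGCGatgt
Counts were summed per symbol, so which of the start sites of Sesn1 or Tsc22d3 was used cannot be told from them.

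The libraries held 10537540 to 13999287 counts. Pearson's r of log2 CPM across genes was 0.985 to 0.988 within groups and 0.952 to 0.957 between groups. As a check of the stimulus, all 6 STAT5 target genes examined were higher in IL-3, and Cish, Socs1 and Socs3 had log2 fold changes of 4.01, 4.12 and 3.63. Basophil markers were abundant, with mean levels of Mcpt8 at 3066 CPM (PBS) and 5895 CPM (IL-3), and 6 of 8 were called higher and 1 lower. Markers of monocytes and macrophages were abundant too. Summed, they gave 11602 to 12524 CPM in the PBS libraries and 6047 to 6673 CPM in the IL-3 libraries, with 7 of 9 genes called lower and Adgre1 called higher, and Lyz2 made up most of that sum. In bulk RNA, fewer cells of a type and less RNA per cell cannot be told apart, and the part of macrophage transcripts in the results below was not tested.

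Foxo1, Btg1, Pik3ip1 and Tsc22d3 are known to be high in lymphoid cells, whose part in the results was not tested. The 7 T cell markers summed to 5.73 to 8.86 CPM in PBS and 3.91 to 7.11 CPM in IL-3, and the 4 that could be tested had log2 fold changes of -0.81 to 0.26, with no edgeR call. The 6 B cell markers summed to 8.10 to 11.6 CPM in PBS and 6.58 to 8.98 CPM in IL-3, and Cd79b was called lower, a call that was lost under 8 of 16 alternatives, among them limma-voom, thinned counts and 4 of 6 left-out libraries. Of NK cell markers Gzma was at 0 in every library, and Nkg7 made up most of a sum that was 6.71 to 8.94 CPM in PBS and 29.0 to 33.1 CPM in IL-3. Dendritic cell markers summed to 86.0 to 90.6 CPM in PBS and 70.7 to 79.9 CPM in IL-3, with 1 of 6 called lower. Mast cell markers were higher, with 4 of 6 tested genes called and sums of 840 to 945 and 1437 to 1571 CPM. Neutrophil markers summed to 113 to 156 and 186 to 245 CPM, with 3 of 6 tested genes called higher and 1 lower. Eosinophil markers summed to 155 to 173 and 95.02 to 136 CPM, with 1 of 5 higher and 3 lower. Erythroid markers summed to 100.0 to 219 and 54.6 to 101.1 CPM, with 2 of 4 lower, and Alas2 was at 0 in every library. These marker counts stand beside 18% of all genes called higher and 20.2% called lower.

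Foxo3 was the most abundant of the 3 FOXO factors and did not pass the test. Foxo3 (ENSMUSG00000048756, chromosome 10, 42181841 to 42276755, minus strand, GRCm38) encodes the factor best known for keeping blood stem cells quiescent. It was measured at 159, 134 and 149 CPM in the PBS libraries and at 140, 149 and 166 CPM in the IL-3 libraries, which overlap. Its log2 fold change was 0.04 with a 95% confidence interval of -0.11 to 0.20 (edgeR adjusted p 0.695). The sign of Foxo3 turned with scaling by library totals (-0.12) and without PBS replicate 2 (-0.023) or IL-3 replicate 3 (-0.026), and it was not called in any of these.

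Foxo4 was lower. Foxo4 (ENSMUSG00000042903, chromosome X, 101254528 to 101260873, plus strand) had 20.7, 23.1 and 25.4 CPM in PBS and 16.3, 15.8 and 17.2 CPM in IL-3, so that all IL-3 libraries lay below all PBS libraries. On the log2 scale IL-3 minus PBS was -0.49 (SE 0.113, edgeR adjusted p 0.00294).

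Foxo1, which directs homing and survival genes in lymphocytes, was also lower but less firmly. Foxo1 (ENSMUSG00000044167, chromosome 3, 52268336 to 52353221, plus strand) had 17.0, 23.3 and 23.4 CPM in PBS and 12.9, 17.9 and 13.0 CPM in IL-3. PBS replicate 1 and IL-3 replicate 2 lay closest to the other group, and there the groups overlapped. On the log2 scale IL-3 minus PBS was -0.54 (SE 0.155, edgeR adjusted p 0.0117), and this call was lost in most fits with 1 library left out. The adjusted p of Foxo1 was 0.0523 without PBS replicate 2, 0.0512 without PBS replicate 3, 0.0505 without IL-3 replicate 1 and 0.0541 without IL-3 replicate 3, with log2 fold changes between -0.47 and -0.45. Over all alternatives the adjusted p ranged from 0.000424 to 1, the latter in the test against a fold of 1.5.

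Counted per kb of transcript, so that genes can be compared, Foxo3 made up most of the FOXO transcripts. With the median transcript length of each gene, Foxo3 stood at 58.1 ± 4.96 CPM per kb, Foxo4 at 17.2 ± 1.74 and Foxo1 at 2.45 ± 0.424 in PBS (SD, n = 3), and their ranges were apart. In IL-3 these levels were 59.8 ± 5.19, 12.2 ± 0.528 and 1.68 ± 0.331 CPM per kb. The share of Foxo3 in the sum of the 3 factors was 78.3%, 72.6% and 73.2% in the PBS libraries and 80.3%, 80.9% and 82.1% in the IL-3 libraries, and the groups did not overlap. With the longest transcript the shares were 66.1% to 73.2% and 75.4% to 77.8%. Foxo6, the remaining family member, had no count in any library, which allows up to 3 counts, or 0.214 to 0.285 CPM on library totals, in a library.

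**Figure D2:**
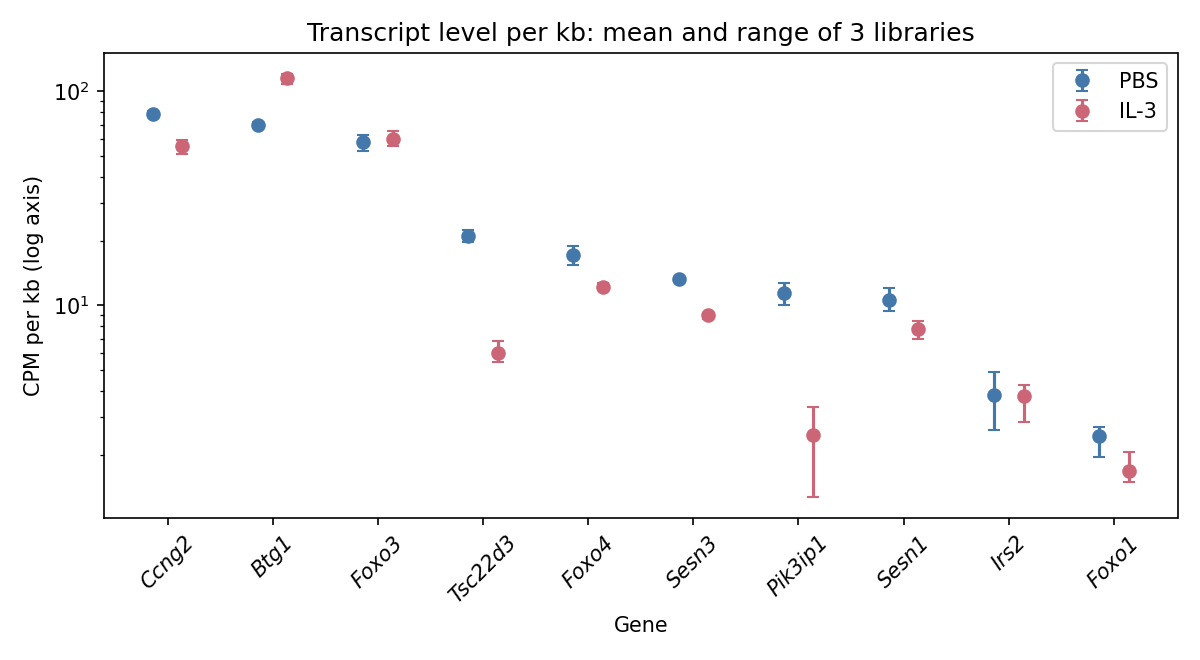
Level of the 10 genes in CPM per kb of the median annotated transcript (log axis), as the mean (point) and the lowest and highest library (bar) of 3 PBS (blue) and 3 IL-3 (red) libraries. Ccng2, Btg1 and Foxo3 stand highest in both groups, and Pik3ip1 drops from 11.4 to 2.47 CPM per kb.

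Among all 10 genes the order per kb in PBS was Ccng2, Btg1, Foxo3, Tsc22d3, Foxo4, Sesn3, Pik3ip1, Sesn1, Irs2 and Foxo1. Neighbours in this order had separate ranges over the libraries, except for Pik3ip1 with Sesn1 and for Irs2 with Foxo1. In IL-3, Btg1 came first at 116 CPM per kb, ahead of Foxo3 at 59.8 and Ccng2 at 55.4, and the last 2 overlapped. Tsc22d3 moved from the 4th to the 7th place and Pik3ip1 from the 7th to the 9th. Irs2 overlapped with Pik3ip1, and Pik3ip1 with Foxo1. The order depends on the length used. With the longest transcript of each gene, Btg1 came first in PBS and Sesn3 fell from the 6th to the 9th place.

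Pik3ip1 showed the largest fall of the set. Its product is a membrane protein that binds the catalytic subunit of PI3K and inhibits it. Pik3ip1 (ENSMUSG00000034614, chromosome 11, 3330401 to 3342971, plus strand) had 8.999, 7.89 and 9.95 CPM in PBS and 2.17, 0.999 and 2.64 CPM in IL-3. The counts behind these values were 110, 90 and 113 in PBS and only 22, 12 and 34 in IL-3, so the level in IL-3 is less precise than that in PBS. On the log2 scale IL-3 minus PBS was -2.20 (SE 0.258, edgeR adjusted p 4.87e-06), and 45 of the genes tested had a lower value. It was -2.52 without IL-3 replicate 3 and -1.88 without IL-3 replicate 2, and it stayed called under all 16 alternatives.

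Tsc22d3, which encodes the glucocorticoid-induced leucine zipper GILZ, fell almost as far. GILZ is an anti-inflammatory protein whose gene is activated by the glucocorticoid receptor and by FOXO factors. Tsc22d3 (ENSMUSG00000031431, chromosome X, 140539528 to 140600659, minus strand) had 37.6, 35.5 and 33.1 CPM in PBS and 11.4, 9.08 and 9.54 CPM in IL-3. No library of either group came near the other. On the log2 scale IL-3 minus PBS was -1.83 (SE 0.116, edgeR adjusted p 3.28e-09), and 105 genes had a lower value. It ranged from -1.99 to -1.77 over the alternatives and was always called.

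Cyclin G2, an unusual cyclin that slows division and a classic FOXO target, was lower. Ccng2 (ENSMUSG00000029385, chromosome 5, 93267257 to 93276231, plus strand) had 139, 132 and 141 CPM in PBS and 103, 89.5 and 97.6 CPM in IL-3, well apart. On the log2 scale IL-3 minus PBS was -0.51 (SE 0.0637, edgeR adjusted p 9.82e-06).

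Sesn1 and Sesn3, which encode sestrins, stress-induced proteins that restrain mTORC1, were lower as well. Sesn3 (ENSMUSG00000032009, chromosome 9, 14275067 to 14333101, plus strand) had 24.3, 23.7 and 24.6 CPM in PBS and 16.8, 15.8 and 16.8 CPM in IL-3, a log2 difference of -0.55 (SE 0.103, edgeR adjusted p 0.000482). Sesn1 (ENSMUSG00000038332, chromosome 10, 41809935 to 41908424, plus strand) had 31.3, 24.5 and 26.7 CPM in PBS and 18.1, 20.4 and 22.03 CPM in IL-3, a log2 difference of -0.44 (SE 0.116, edgeR adjusted p 0.00670). Sesn3 varied little within a group, whereas Sesn1 varied more, with PBS replicate 2 and IL-3 replicate 3 nearest to each other, and neither gene overlapped between groups.

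Btg1 was the exception and rose. It encodes an antiproliferative protein that recruits the enzymes which shorten poly(A) tails, and it is a FOXO target in other cells. Btg1 (ENSMUSG00000036478, chromosome 10, 96617006 to 96622809, plus strand) had 203, 195 and 197 CPM in PBS and 305, 336 and 341 CPM in IL-3. On the log2 scale IL-3 minus PBS was 0.73 (SE 0.0562, edgeR adjusted p 3.97e-08), and 6.56% of the genes tested had a higher value. It stayed between 0.56 and 0.77 under all alternatives, where scaling by library totals gave the former.

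Irs2, an adaptor that links the insulin and IL-4 receptors to PI3K and is transcribed under FOXO control in liver, did not pass the test. Irs2 (ENSMUSG00000038894, chromosome 8, 10984681 to 11008458, minus strand) had 31.1, 24.9 and 16.6 CPM in PBS and 26.9, 26.5 and 18.0 CPM in IL-3. The libraries of one group were further apart than the group means. Its log2 fold change was -0.03 with a 95% confidence interval of -0.43 to 0.37 (edgeR adjusted p 0.910), so a change within these bounds could not be told from no change. Left-out libraries moved it from -0.24 to 0.19. Its relative Irs1 reached at most 0.176 CPM in any library and was not tested.

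**Figure D3:**
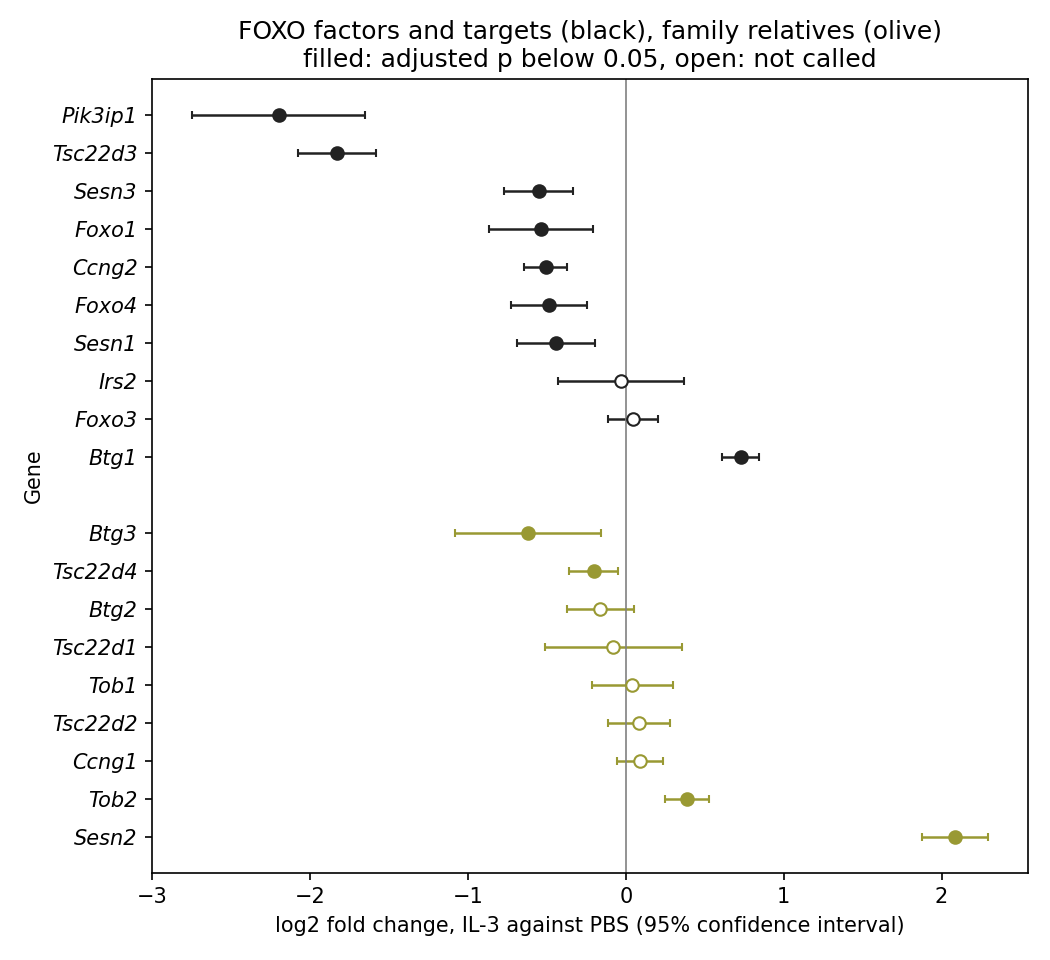
log2 fold change of IL-3 against PBS with its 95% confidence interval for the 10 genes (black) and 9 tested family relatives (olive), where filled points have an adjusted p below 0.05. Sesn2 at 2.08 lies on the opposite side of 0 from Sesn1 at -0.44 and Sesn3 at -0.55.

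Of 12 relatives of these genes, 9 were tested, and 2 were called higher, 2 lower and 5 neither, near the shares over all genes (18% and 20.2%). Sesn2, the third sestrin, had 21.3, 29.5 and 29.5 CPM in PBS and 109, 113 and 118 CPM in IL-3. It rose by 2.08 on the log2 scale (SE 0.0980, 95% confidence interval 1.88 to 2.29, edgeR adjusted p 8.82e-11), while the intervals of Sesn1 and Sesn3 lay wholly below 0. Tob2, of the same antiproliferative family as Btg1, rose by 0.39 on the log2 scale. Btg3 was lower at -0.62, with an adjusted p of 0.0348, and Tsc22d4 was lower at -0.20, with an adjusted p of 0.0365. Without PBS replicate 1, the Btg3 log2 fold change was -0.30, with an adjusted p of 0.263, and it was not called. Both calls were near the threshold, and the number of relatives called lower was 1 or 0 under 12 of 16 alternatives. Btg2, Ccng1, Tsc22d1, Tsc22d2 and Tob1 had log2 fold changes of -0.16, 0.09, -0.08, 0.09 and 0.04 and were not called. For Tsc22d1 the libraries of IL-3 ranged from 133 to 324 CPM.

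Further FOXO targets of other cells went both ways. Of 40 such genes 33 were tested, and 18 were lower and 7 higher in IL-3, with a median log2 fold change of -0.42. The shares over all genes were 20.2% lower and 18% higher. Against a fold of 1.5, 7 were lower and 6 higher, beside 5.3% and 4.25% of all genes. The smallest adjusted p belonged to genes that rose. The cell cycle inhibitor Cdkn1a went from 149 ± 9.42 to 609 ± 15.3 CPM (SD, n = 3), which is 2.03 in log2, and Cited2, a transcriptional coregulator, rose by 2.13. Lower genes, named with their values already known, included Fbxo32 at -2.25, which encodes the ubiquitin ligase atrogin, Bcl6 at -1.58, a transcriptional repressor, Gadd45a at -1.54, a stress sensor, and Il7r at -1.22. The cell cycle inhibitor Cdkn1b, also chosen after its values were seen, had 158, 144 and 158 CPM in PBS and 110, 102 and 121 CPM in IL-3, a log2 fold change of -0.46 (edgeR adjusted p 5.23e-05). Thus Cdkn1a and Cdkn1b, which both encode inhibitors of cyclin-dependent kinases, moved in opposite directions. The list also held Cdkn2d, another such inhibitor, which is not reported here. Fasl, Pdk4, Pck1, Trim63 and Ppargc1a stayed at or below 1.18 CPM in every library and were not tested, and G6pc and Rag1 had no counts.

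**Figure D4:**
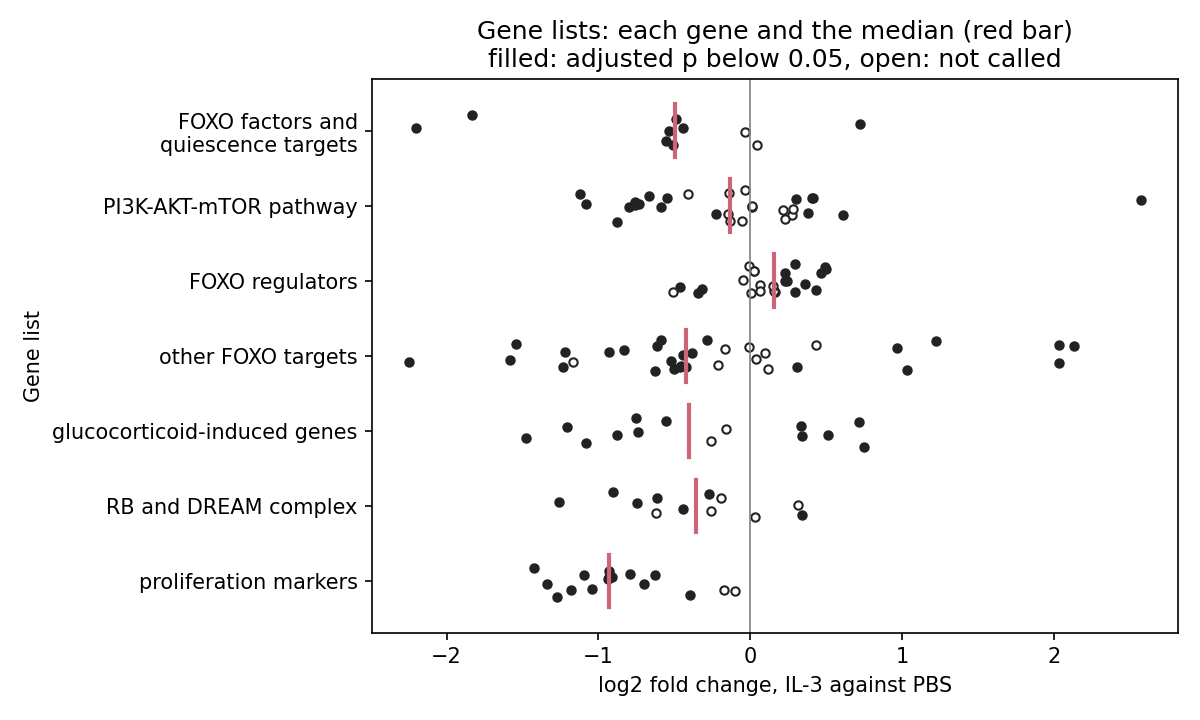
log2 fold change of IL-3 against PBS for each tested gene of 7 lists, filled where the adjusted p was below 0.05, with the median as a red bar and a vertical line at 0. The median lies lowest for proliferation markers at -0.93 and is above 0 for regulators of FOXO proteins at 0.15.

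In the PI3K, AKT and mTOR pathway upstream of FOXO, genes were called in both directions. Of 29 tested genes, 6 were higher and 11 lower, with a median of -0.13, where 18% of all genes were higher and 20.2% lower. Against a fold of 1.5, 1 was higher and 3 were lower, beside 4.25% and 5.3% of all genes. Pik3cd, the leukocyte catalytic subunit of PI3K, rose from 64.0 to 381 CPM on average, or by 2.57 on the log2 scale (SE 0.0600, edgeR adjusted p 1.63e-14), beside the fall of the PI3K inhibitor Pik3ip1. Sgk1, a kinase that can also phosphorylate FOXO proteins, fell by 0.88, and Ddit4, an inhibitor of mTORC1, fell by 1.08. Of others picked after their values were known, the adaptor gene Pik3r5 was at -1.12 and Akt2 at 0.41, both called.

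Of enzymes and carriers that act on FOXO proteins, 10 of 24 were called higher and 3 lower, with a median of 0.15, where 18% of all genes were higher and 20.2% lower. Against a fold of 1.5 the edgeR test called 0 of them, beside 4.25% and 5.3% of all genes. Ywhaz and Ywhab, which encode phosphoprotein-binding proteins that keep FOXO in the cytoplasm, rose by 0.47 and 0.50, and the acetyltransferase gene Ep300 rose by 0.36. Ywhah, of the same family and chosen after its values were seen, was lower, with mean levels of 417 and 328 CPM and a log2 fold change of -0.34 (edgeR adjusted p 0.00112). With scaling by library totals, 5 were higher and 6 lower, so this direction depended on the scaling.

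The fall of Tsc22d3 was set beside a list of 14 genes, made up of genes induced by the glucocorticoid receptor and the receptor gene Nr3c1. Of these, 5 were higher and 7 lower (18% and 20.2% of all genes), with a median of -0.40, and against a fold of 1.5 there were 1 higher and 5 lower (4.25% and 5.3% of all genes). Sgk1 and Ddit4 belong to this list too, and Tle3, a corepressor gene, rose by 0.71. Nr3c1, the gene of the receptor itself, fell from 110 ± 2.95 to 65.5 ± 3.68 CPM, at a log2 difference of -0.75, and Per1 and Zbtb16 were at -1.20 and -1.48, whereas Fkbp5, a widely used readout of the receptor, was higher at 0.51. These last 4 were chosen after their values were seen. The number called higher was 2 with scaling by library totals and 3 without IL-3 replicate 1.

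Quiescence is also held by the RB family and the DREAM complex, which repress cell cycle genes. Of 12 such genes 6 were lower and E2f4 was higher at 0.34, which scaling by library totals no longer called, where 20.2% of all genes were lower and 18% higher. Against a fold of 1.5 the edgeR test called 2 lower and 0 higher, beside 5.3% and 4.25% of all genes. Rbl2, a pocket protein of resting cells, fell by 0.61, Rbl1 fell by 0.91 and Tfdp2, a partner of E2F factors, fell by 1.26. Markers of dividing cells were lower at the same time, with 14 of 16 called lower and a median of -0.93. Their summed level was 896 to 994 CPM in PBS and 485 to 571 CPM in IL-3. Mki67, Birc5 and Ccnb2 had log2 fold changes of -1.04, -1.18 and -1.42. Lower levels of Ccng2, Sesn1, Sesn3, Pik3ip1 and Tsc22d3 stood beside lower levels of proliferation transcripts. Btg1, Cdkn1a, Sesn2 and Tob2 were higher, with log2 fold changes of 0.73, 2.03, 2.08 and 0.39. How any of these genes relate to the proliferation transcripts was not tested.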

How the data were processed

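Bulk RNA-seq of 3 PBS and 3 IL-3 libraries was analysed from the raw read counts per gene symbol that the authors deposited. By the study's methods, cDNA of poly(A) RNA was amplified as a whole-transcriptome library, and reads were trimmed with cutadapt 3.4 and mapped with Bowtie2 to reference RNA of GRCm38. The submitters' processing notes list GRCm39, and coordinates here are those of GENCODE M21 on GRCm38. No molecular identifiers are described, so limits from counts cover counting error only. Strand use in counting is not stated. Antisense genes overlap Foxo1, Pik3ip1 and Irs2 but had at most 9 counts in any library. The members shared 0% to 2.488% of their 50-mers with other genes.

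Counts were filtered with filterByExpr, scaled by TMM and compared by the quasi-likelihood F test of edgeR 4.0.16 in R 4.3.3, with group as the only term and Benjamini-Hochberg adjustment over all 16675 genes tested. All tests were two-sided, and the threshold was an adjusted p of 0.05. The SE came from the F value. CPM values are TMM-scaled, log2 CPM had a prior count of 2, and length came from annotated transcripts. The study gives 3 cultures per group and does not call them independent, so p-values measure only the spread between these samples, which may be technical. The 10 members and all lists were chosen with earlier results of these data known, so no list was tested as a set or adjusted alone. Named genes were the members, their tested relatives, and the 3 genes of each other list that is not of cell type markers with the smallest adjusted p. Marker genes, E2f4, untested genes and those marked in the text were named after their values were seen. Some genes that the rule names are not reported here. Whether replicate numbers pair the libraries is not stated. Deviations from group means of libraries with the same number correlated at -0.0087, -0.016 and -0.022. These values gave no sign of pairing but cannot exclude it. Calling was tested on simulated data. Alternatives used DESeq2 1.42.0 and limma 3.58.1, other scalings, filters and thresholds, thinned counts, a replicate block, left-out libraries and the longest transcript.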

Additional observations from a re-analysis of the deposited data

How the results depend on the processing

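The 7 lower and 1 higher of the 10 genes were called alike with DESeq2 size factors, library totals, both other filters, the DESeq2 Wald test, limma-voom, thinned counts and the replicate block, which gave 7 lower genes and 2842 higher and 3247 lower genes over the whole table. The block changed no call of the 10 genes. Leaving out 1 library gave 6 to 7 lower genes, since the value of Foxo1 ranged from -0.72 to -0.45 and its call was lost in 4 of 6 cases. An adjusted p below 0.01 also removed Foxo1 (-0.54), leaving 6 lower beside 14.3% of all genes. The stricter null of a fold of 1.5 called 709 genes higher and 883 lower in all, and 2 of the 10 were lower, Pik3ip1 and Tsc22d3. It no longer called Foxo1 (-0.54), Foxo4 (-0.49), Ccng2 (-0.51), Sesn1 (-0.44) and Sesn3 (-0.55).

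Scaling by library totals shifted the median log2 fold change of all genes to -0.17 and gave 1698 higher and 5030 lower genes. There Foxo3 (-0.12), Ccng1 (-0.074), Tob1 (-0.12), Tsc22d2 (-0.077) and Prss34 (-0.15) turned negative. With 1 library left out, Foxo3 ranged from -0.026 to 0.10, Irs2 from -0.24 to 0.19, Tsc22d1 from -0.36 to 0.20 and Prss34 from -0.027 to 0.056. Irs2 was 0.016 in thinned counts. Depth limits Pik3ip1, with 12 to 34 counts in IL-3, and the genes of the lists that could not be tested.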
